A study of Arabidopsis thaliana with 12 samples.

Results

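The nitrate assimilation genes examined here are NRT1.1 (AT1G12110), NRT2.1 (AT1G08090), NIA1 (AT1G77760), NIA2 (AT1G37130), NIR1 (AT2G15620), GLN1;1 (AT5G37600), GLN2 (AT5G35630), GDH1 (AT5G18170) and GDH2 (AT5G07440). These 9 genes were picked by their AGI locus codes out of 33602 genes in the count table. All 9 passed the filter on low counts, which left 20651 genes for testing. They cover the route from nitrate uptake to glutamine and the return of glutamate to carbon skeletons.

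Messenger RNA was sequenced from whole Arabidopsis thaliana plants, 2 weeks old and raised in soil, in 4 groups of 3 libraries. The groups cross a genotype with a soil. The genotype was either wild type Col-0, the common reference accession, or rdd, which lacks the DNA demethylases ROS1, DML2 and DML3 in the Col-0 background. The soil was either regular, called control below, or held YC4-R4, a bacterial strain that the series title places among beneficial root bacteria. The mutant is a single line whose alleles the labels do not give. The series design calls the 3 libraries of a group biological replicates, and the labels do not say how many plants each holds. Roots and shoots were sequenced together, so a lower level can come from fewer cells of a type or from less RNA per cell, and these cannot be told apart.

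Plants take nitrate up through transporters of the NRT1 and NRT2 families and reduce it to nitrite in the cytosol with nitrate reductase. Nitrite reductase in the plastid makes ammonium, and glutamine synthetase joins that ammonium to glutamate. Glutamate synthase then passes the amide group on to make more glutamate. Glutamate dehydrogenase works mainly in the opposite direction, releasing ammonium from glutamate so that its carbon can be respired, and is known to be induced when sugar is short. Nitrate itself, light, sugar and the circadian clock are known regulators of the reductase genes.

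Library totals ran from 14465710 to 20281801 counts. Replicates varied by a biological coefficient of variation of 2.57% to 3.21% in 3 groups and by 5.81% in the libraries labelled rdd YC4-R4, which stood apart in their spread. The demethylase genes did not check the genotype labels. ROS1 measured 82.0 ± 3.94 CPM (counts per 1000000 of the scaled library total, SD, n = 3) in Col-0 control and 79.9 ± 2.23 in rdd control, and DML2 measured 19.9 ± 0.420 and 20.7 ± 2.11. DML3 measured 4.97 ± 0.794 and 3.52 ± 0.137, and its log2 difference of -0.50 ± 0.20 (SE) passed narrowly (edgeR, Benjamini-Hochberg adjusted p = 0.0431). In YC4-R4 soil 0 of the 3 passed an adjusted p under 0.05 between genotypes (edgeR), where 28.7% of all tested genes did. With YC4-R4, 3 were lower in Col-0 and 2 in rdd, beside 16.9% and 17.1% of all tested genes. The lowest log2 fold changes were -2.63 in Col-0 and -2.57 in rdd. Counts over a whole gene cannot tell a disrupted transcript from an intact one, so the groups are called by their labels throughout.

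Set per kilobase of exon, the levels in Col-0 control were highest for GLN2, at 907 ± 14.2 CPM per kb (SD, n = 3), followed by NIA2 at 421 ± 5.87 and NIR1 at 171 ± 2.94. NIA1 stood at 76.8 ± 1.97, NRT1.1 at 45.8 ± 0.343, GDH2 at 45.3 ± 1.57, GDH1 at 36.0 ± 0.806 and GLN1;1 at 31.6 ± 1.53. NRT1.1 and GDH2 did not differ beyond their spread in that order. NRT2.1 came last, at 0.987 ± 0.0159 CPM per kb. In rdd control, GDH2 stood at 140 ± 3.11 CPM per kb, above NIA1 at 78.5 ± 2.21.

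**Figure D1:**
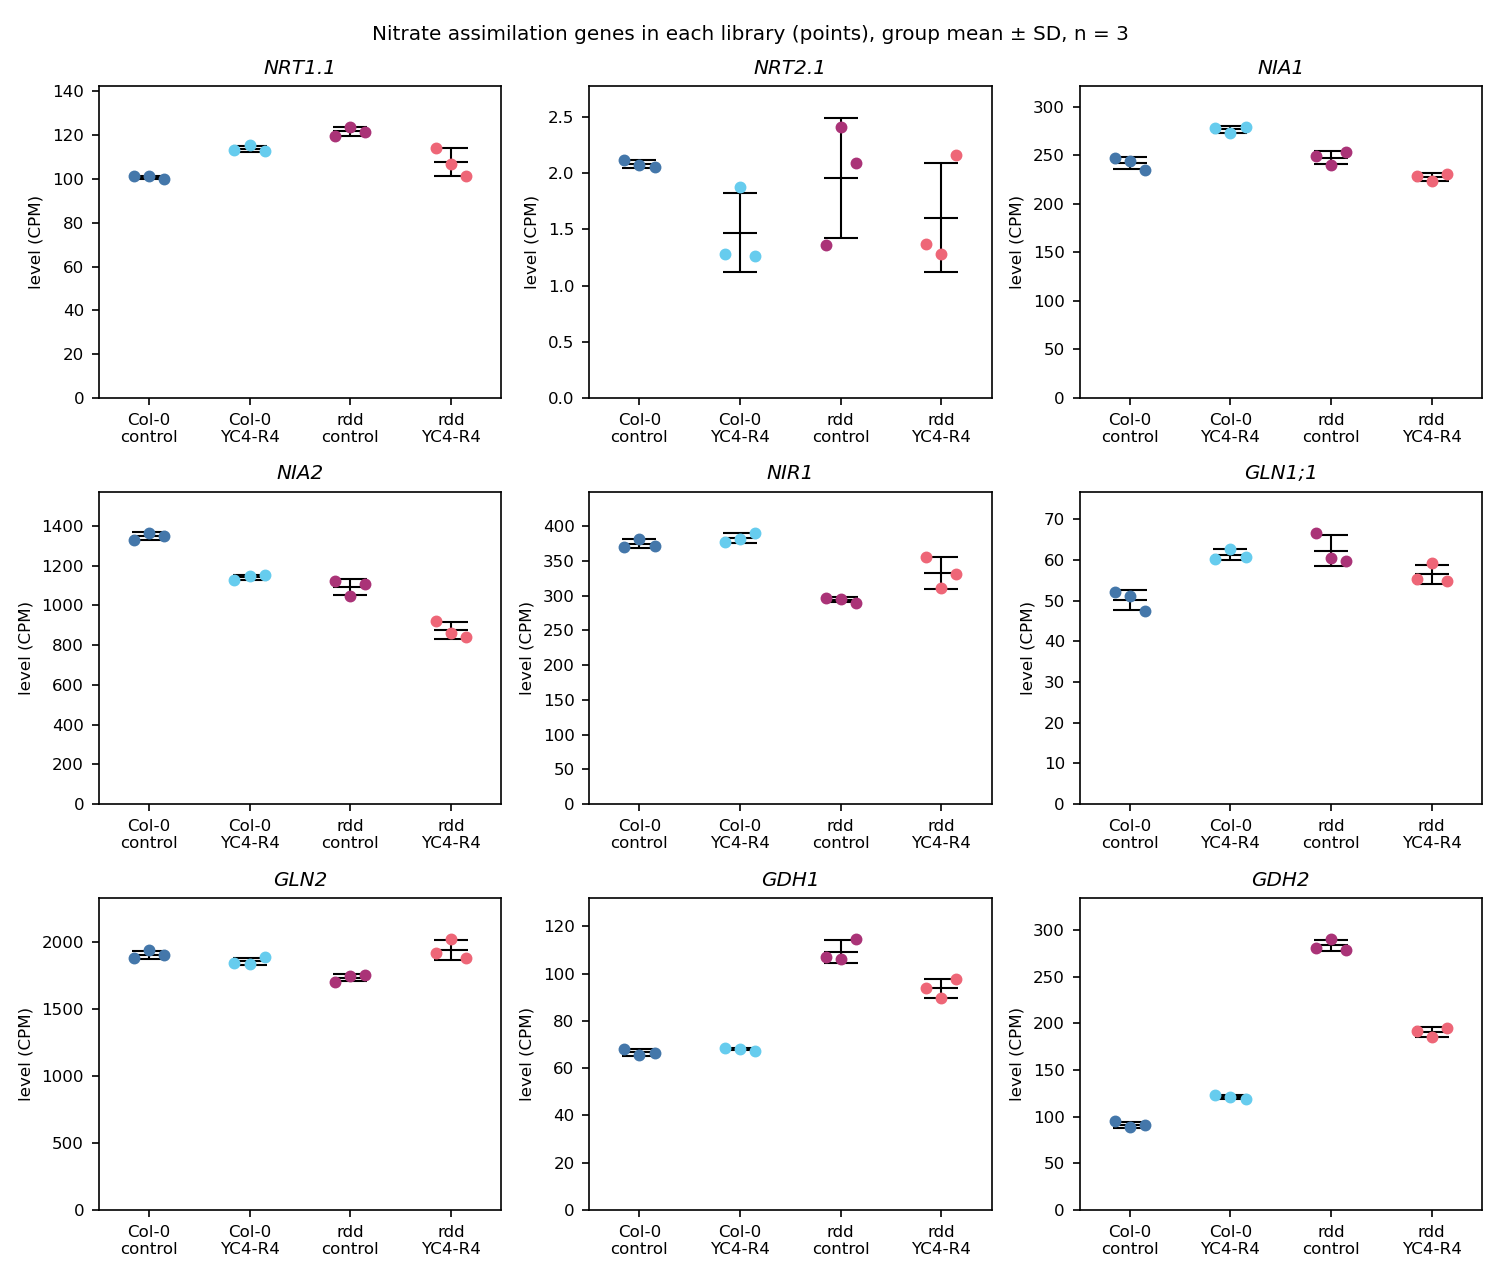
Level of each of the 9 genes (vertical axis, CPM from 0) in every library (points), by group (horizontal axis), with bars for the group mean ± SD over 3 libraries. GDH2 lies between 88.6 and 94.9 CPM in Col-0 control and between 279 and 291 CPM in rdd control, while NRT2.1 stays under 2.42 CPM in every library.

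YC4-R4 against control soil in the libraries labelled Col-0 called 4 of the 9 genes higher and 1 lower, where 29.8% of all tested genes were called (12.9% higher, 16.9% lower). NIA1, NRT1.1, GLN1;1 and GDH2 rose and NIA2 fell. The median log2 fold change of the 9 was 0.033, beside 0.0025 over all tested genes. The same soils compared in the libraries labelled rdd called 2 genes higher and 6 lower, with 32.2% of all tested genes called (15.1% higher, 17.1% lower). There NIR1 and GLN2 rose, NRT1.1, NIA1, NIA2, GLN1;1, GDH1 and GDH2 fell, and the median was -0.18 beside 0.0036. Between genotypes in control soil, 4 of the 9 genes were higher in rdd and 3 lower, with 43.9% of all tested genes called (20.9% higher, 23% lower) and a median of 0.030 beside 0.0091. In YC4-R4 soil 2 were higher in rdd and 3 lower, with 28.7% called (14.3% higher, 14.4% lower) and a median of -0.081 beside 0.0071. The interaction subtracts the YC4-R4 effect of Col-0 from the one of rdd. It was called for 7 of the 9 genes, 2 upward and 5 downward, with 30.6% of all tested genes called (16.2% upward, 14.4% downward) and a median of -0.25 beside 0.0036. These comparisons share libraries in pairs, so their calls are not independent of each other. The median absolute log2 fold change over all tested genes was 0.15 for YC4-R4 in each genotype and 0.21 in the interaction. Between genotypes it was 0.20 in control soil and 0.15 in YC4-R4 soil. Calls needed no minimum fold, and some were smaller than these medians, among them the interactions of NIR1 and GLN2.

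**Figure D2:**
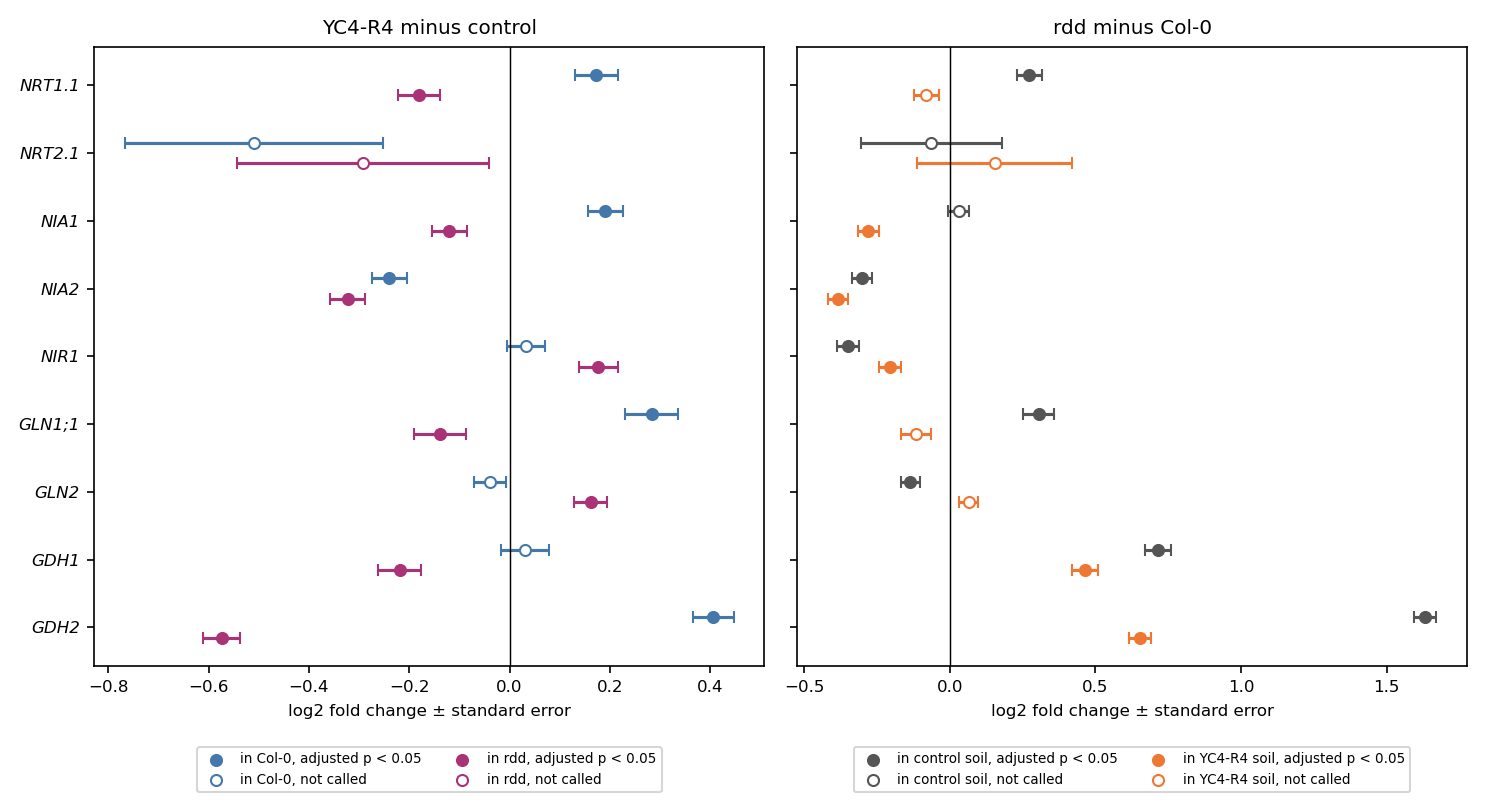
Log2 fold change ± SE (horizontal axis) of each gene (vertical axis) for YC4-R4 against control in each genotype (left) and for rdd against Col-0 in each soil (right), with filled points for an adjusted p under 0.05. NRT1.1, NIA1, GLN1;1 and GDH2 lie to the right of 0 in Col-0 and to the left of 0 in rdd, and GDH2 reaches 1.63 in the genotype comparison in control soil.

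NRT1.1, also known as NPF6.3, is the dual-affinity nitrate transporter and nitrate sensor of the plasma membrane. It lies on the plus strand at chr1:4105223-4109601 in build TAIR10.1. It measured 101, 101 and 99.9 CPM in Col-0 control, 113, 115 and 113 in Col-0 YC4-R4, 119.7, 124 and 121 in rdd control, and 114, 107 and 101 in rdd YC4-R4. The Col-0 control libraries were lowest and the rdd control libraries highest, and the rdd YC4-R4 libraries overlapped those of Col-0 YC4-R4. YC4-R4 raised it by 0.17 ± 0.043 on the log2 scale in Col-0 (SE, edgeR, adjusted p = 0.00172), and in rdd it fell by 0.18 ± 0.042 (edgeR, adjusted p = 0.000879). The difference between these effects was -0.35 ± 0.060 (edgeR, adjusted p = 1.29e-05). In control soil NRT1.1 was higher in rdd by 0.27 ± 0.042 (edgeR, adjusted p = 1.69e-06). In YC4-R4 soil its genotype difference was -0.081 ± 0.042 (edgeR, adjusted p = 0.157), and without rdd YC4-R4 replicate 1 it was -0.13 (adjusted p = 0.0189).

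NRT2.1 is the main high-affinity nitrate transporter of roots and lies at chr1:2524023-2526322. It carried only 20 to 46 counts per library. Its levels were 2.12, 2.07 and 2.05 CPM in Col-0 control, 1.28, 1.87 and 1.26 in Col-0 YC4-R4, 1.36, 2.41 and 2.09 in rdd control, and 1.37, 1.28 and 2.16 in rdd YC4-R4. The Col-0 groups did not overlap, while each rdd group ran from near the lowest value to near or above the highest of the Col-0 control libraries. None of its tests passed. Its log2 fold change with YC4-R4 was -0.51 ± 0.26 in Col-0 (edgeR, adjusted p = 0.139) and -0.29 ± 0.25 in rdd (edgeR, adjusted p = 0.409). With standard errors this wide, the tests do not tell whether NRT2.1 changed. The coding sequence of NRT2.1 shares a run of 170 bases with that of its neighbour NRT2.2, whose counts were 0 throughout, and reads from that stretch cannot be assigned to a single copy.

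NIA1 and NIA2 encode the nitrate reductases, with NIA2 known as the larger contributor to the activity of leaves. The genes lie at chr1:29235721-29239484 on the minus strand and at chr1:14158452-14161938 on the plus strand. Their coding sequences, each 2754 bases long, are alike but share no exact run longer than 20 bases, shown here because it sets how well reads separate the copies.
NIA1 and NIA2: aaggaacagaacatggtgaa
This run lies at coding bases 607 to 626 of NIA1 and 589 to 608 of NIA2.

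NIA1 measured 247, 244 and 235 CPM in Col-0 control, 278, 273 and 279.5 in Col-0 YC4-R4, 249, 240.0 and 254 in rdd control, and 229, 223 and 231 in rdd YC4-R4. The Col-0 YC4-R4 libraries were highest and the rdd YC4-R4 libraries lowest, each apart from all others, and the control groups of both genotypes overlapped. NIA1 rose with YC4-R4 in Col-0 by 0.19 ± 0.035 (edgeR, adjusted p = 5.30e-05) and fell in rdd by 0.12 ± 0.036 (edgeR, adjusted p = 0.00831). Without rdd control replicate 3 the latter was -0.10 and no longer called (edgeR, adjusted p = 0.0642), and under plain library totals it was also not called (edgeR, adjusted p = 0.0539). The YC4-R4 effects differed between genotypes by -0.31 ± 0.050 (edgeR, adjusted p = 6.00e-06). In YC4-R4 soil NIA1 was lower in rdd, by a log2 difference of -0.28 ± 0.035 (edgeR, adjusted p = 7.15e-08), and in control soil the difference was 0.030 ± 0.036 (edgeR, adjusted p = 0.521).

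NIA2 measured 1328, 1365 and 1350.5 CPM in Col-0 control, 1128, 1146 and 1152 in Col-0 YC4-R4, 1123, 1049 and 1109 in rdd control, and 922, 861 and 840.4 in rdd YC4-R4. The 4 groups stepped down in that order with no overlap, although the gap between Col-0 YC4-R4 and rdd control was narrow. NIA2 fell with YC4-R4 by 0.24 ± 0.035 in Col-0 (edgeR, adjusted p = 9.43e-07) and by 0.32 ± 0.035 in rdd (edgeR, adjusted p = 2.09e-09). It was lower in rdd in control soil, by -0.30 ± 0.035 (edgeR, adjusted p = 4.64e-09), and in YC4-R4 soil, by -0.38 ± 0.035 (edgeR, adjusted p = 3.90e-11). NIA2 was the only gene of the 9 called lower in all 4 comparisons between groups. The difference between its YC4-R4 effects was -0.083 ± 0.049 and was not called (edgeR, adjusted p = 0.219), but it was called without rdd YC4-R4 replicate 1, at -0.12 (edgeR, adjusted p = 0.0227).

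NIR1 encodes the nitrite reductase of the plastid, a siroheme enzyme fed by ferredoxin, and lies at chr2:6810395-6812941. It measured 369.5, 382 and 372 CPM in Col-0 control, 377, 381 and 390.4 in Col-0 YC4-R4, 296, 295 and 289.7 in rdd control, and 356, 310.5 and 330.3 in rdd YC4-R4. The rdd groups lay below both Col-0 groups, which overlapped each other. In rdd NIR1 rose with YC4-R4 by 0.18 ± 0.039 (edgeR, adjusted p = 0.000417), whereas in Col-0 the change was 0.033 ± 0.038 (edgeR, adjusted p = 0.561). It was lower in rdd by -0.35 ± 0.039 in control soil (edgeR, adjusted p = 1.69e-09) and by -0.21 ± 0.038 in YC4-R4 soil (edgeR, adjusted p = 6.37e-05). The difference between its YC4-R4 effects, 0.14 ± 0.054, passed narrowly (edgeR, adjusted p = 0.0415) and was not called under 12 of 17 other settings, among them 9 of the 12 fits without a library, with adjusted p of up to 0.341.

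GLN1;1, a cytosolic glutamine synthetase, lies at chr5:14933286-14935885 on the minus strand. It measured 52.1, 51.1 and 47.5 CPM in Col-0 control, 60.3, 62.7 and 60.6 in Col-0 YC4-R4, 66.7, 60.4 and 59.7 in rdd control, and 55.3, 59.1 and 54.9 in rdd YC4-R4. The Col-0 control libraries were lowest, and the Col-0 YC4-R4 and rdd control libraries overlapped. GLN1;1 rose with YC4-R4 in Col-0 by 0.28 ± 0.053 (edgeR, adjusted p = 5.36e-05) and was higher in rdd in control soil by 0.31 ± 0.052 (edgeR, adjusted p = 9.27e-06). In rdd it fell with YC4-R4 by 0.14 ± 0.052 (edgeR, adjusted p = 0.0365). That call was lost under 6 of 18 other settings. It was lost without rdd control replicate 1, where the value was -0.090 (edgeR, adjusted p = 0.246), without rdd YC4-R4 replicate 1 (adjusted p = 0.0844) or 3 (adjusted p = 0.137), with DESeq2 (adjusted p = 0.0613), with only the compared groups fitted (edgeR, adjusted p = 0.0734) and with plain library totals (edgeR, adjusted p = 0.121). The YC4-R4 effects differed between genotypes by -0.42 ± 0.074 (edgeR, adjusted p = 2.07e-05). In YC4-R4 soil the genotype difference was -0.12 ± 0.052 (edgeR, adjusted p = 0.0889), and it was called without rdd YC4-R4 replicate 2, at -0.15 (edgeR, adjusted p = 0.0361).

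GLN2, the plastid glutamine synthetase that also recaptures the ammonium of photorespiration, lies at chr5:13830429-13833542. It measured 1878, 1937 and 1903 CPM in Col-0 control, 1844, 1838 and 1886 in Col-0 YC4-R4, 1702, 1749.5 and 1754 in rdd control, and 1917, 2025 and 1881 in rdd YC4-R4. Only the rdd control libraries stood apart, below the rest, and the other 3 groups overlapped. GLN2 rose with YC4-R4 in rdd by 0.16 ± 0.032 (edgeR, adjusted p = 0.000126), and its change in Col-0 was -0.038 ± 0.032 (edgeR, adjusted p = 0.404). These effects differed by 0.20 ± 0.045 (edgeR, adjusted p = 0.000704). In control soil GLN2 was lower in rdd, at -0.14 ± 0.032 (edgeR, adjusted p = 0.000697), a call that was lost with plain library totals, where the value was -0.044 (edgeR, adjusted p = 0.254). In YC4-R4 soil the genotype difference was 0.064 ± 0.032 (edgeR, adjusted p = 0.138).

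GDH1 and GDH2 encode subunits of the mitochondrial glutamate dehydrogenase, which assemble into mixed hexamers. They lie on the plus strand at chr5:6006035-6008726 and chr5:2355759-2358241, and GDH1 overlaps AT5G18180 on the opposite strand. None of the other 8 genes overlaps an annotated gene. Both coding sequences are 1236 bases long, and their longest shared run is 41 bases, shown because it sets how well their reads can be kept apart.
GDH1 and GDH2: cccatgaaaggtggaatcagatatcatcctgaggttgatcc
It lies at coding bases 190 to 230 in both genes, and no stretch of 50 bases is common to them. GDH1 shares a run of 59 bases with GDH3.

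GDH1 measured 68.3, 65.4 and 66.3 CPM in Col-0 control, 68.7, 68.3 and 67.5 in Col-0 YC4-R4, 107, 106 and 115 in rdd control, and 94.1, 89.8 and 97.9 in rdd YC4-R4. All rdd libraries lay above all Col-0 libraries, and the Col-0 groups overlapped. GDH1 was higher in rdd by 0.71 ± 0.045 in control soil (edgeR, adjusted p = 1.17e-15) and by 0.46 ± 0.046 in YC4-R4 soil (edgeR, adjusted p = 2.63e-10). With YC4-R4 it fell in rdd by 0.22 ± 0.044 (edgeR, adjusted p = 0.00013) and showed 0.031 ± 0.047 in Col-0 (edgeR, adjusted p = 0.670). The effects differed by -0.25 ± 0.064 (edgeR, adjusted p = 0.00256).

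GDH2 measured 94.9, 88.6 and 90.8 CPM in Col-0 control, 124, 121 and 119 in Col-0 YC4-R4, 281, 291 and 279 in rdd control, and 192, 185 and 194 in rdd YC4-R4. The 4 groups did not overlap, and their levels went up in the order Col-0 control, Col-0 YC4-R4, rdd YC4-R4, rdd control. In control soil GDH2 was higher in rdd by 1.63 ± 0.039 (edgeR, adjusted p = 5.27e-28), and in YC4-R4 soil by 0.65 ± 0.039 (edgeR, adjusted p = 3.90e-16). It rose with YC4-R4 in Col-0 by 0.41 ± 0.041 (edgeR, adjusted p = 3.10e-10) and fell in rdd by 0.57 ± 0.037 (edgeR, adjusted p = 3.28e-15). The resulting difference of -0.98 ± 0.055 was the widest interaction of the 9 genes (edgeR, adjusted p = 1.07e-16). Each of these GDH2 calls was kept under every other setting tried.

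The 250 bases before the annotated starts of GDH1 and GDH2 are shown because both genes were higher in rdd in each soil. They were read from build TAIR10.1, plus strand, at chr5:6005785-6006034 and chr5:2355509-2355758, and capitals mark a match to a searched motif.
GDH1: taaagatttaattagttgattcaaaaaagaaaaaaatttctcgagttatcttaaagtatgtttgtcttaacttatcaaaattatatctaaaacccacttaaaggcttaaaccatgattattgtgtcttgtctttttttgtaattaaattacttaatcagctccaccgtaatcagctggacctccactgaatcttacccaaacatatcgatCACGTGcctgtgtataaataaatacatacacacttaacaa
GDH2: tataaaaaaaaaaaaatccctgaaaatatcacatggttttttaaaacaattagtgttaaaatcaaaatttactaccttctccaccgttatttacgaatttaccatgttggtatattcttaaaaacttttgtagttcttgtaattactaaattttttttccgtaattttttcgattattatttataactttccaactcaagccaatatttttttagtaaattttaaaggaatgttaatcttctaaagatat
The motifs searched on both strands in the same window of all 9 genes were the nitrate-responsive element core (CTT and AAG with 10 bases of any kind between), GAATATTC (bound by NIGT1 factors), CACGTG (the G-box), AAATATCT (the evening element) and TTGACC (a W-box). No 2 matches overlapped. GDH1 held a G-box from -40 to -35, GLN2 held 2 W-boxes, and the other 7 windows held no match. Over the windows of 26712 genes the shares with at least 1 match were 7.96%, 0.865%, 6.58%, 4.84% and 12.2%, in the order given. A match is a description of the letters only, and sequence beyond these 250 bases was not searched.

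The balance between paired enzymes moved with the groups when counts were set per kilobase of exon within each library. NIA2 stood at 5.28 to 5.65 times NIA1 in Col-0 control, 3.99 to 4.14 times in Col-0 YC4-R4, 4.30 to 4.43 times in rdd control and 3.58 to 3.96 times in rdd YC4-R4. No groups overlapped for this ratio. GDH2 stood at 1.24 to 1.27 times GDH1 in Col-0 control, 1.62 to 1.65 times in Col-0 YC4-R4, 2.23 to 2.51 times in rdd control and 1.82 to 1.89 times in rdd YC4-R4, again without overlap. GLN2 stood at 27.2 to 30.3 times GLN1;1 in Col-0 control and 25.9 to 26.2 times in rdd YC4-R4. In Col-0 YC4-R4 it stood at 22.1 to 23.5 times and in rdd control at 19.3 to 22.2 times, which overlapped. These ratios within a library do not depend on how libraries were scaled.

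**Figure D3:**
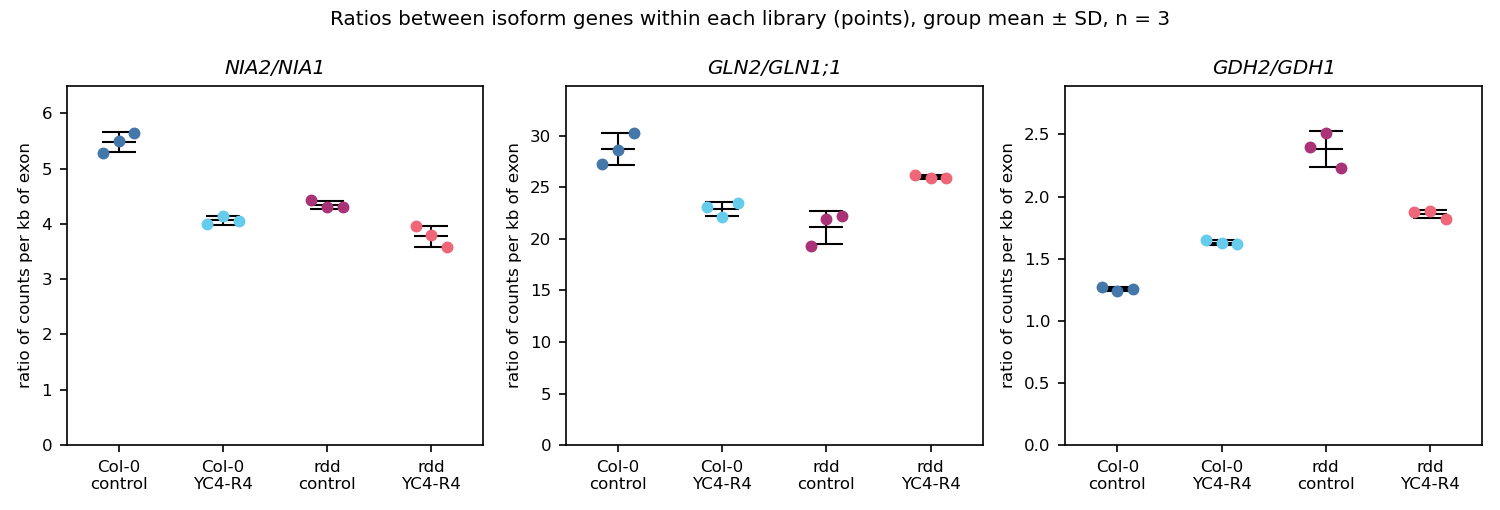
Ratio of counts per kb of exon (vertical axis, from 0) between the genes of each enzyme pair in every library (points), by group, with bars for the mean ± SD over 3 libraries. GDH2 over GDH1 is lowest in Col-0 control, at 1.24 to 1.27, and highest in rdd control, at 2.23 to 2.51.

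Other genes of nitrogen use were taken from 4 lists of 89 genes, of which 83 were tested. The transporter list held 20 tested genes of 25, the ammonium assimilation list 15 of 15, the cofactor and reductant list 13 of 13 and the nitrate regulator list 35 of 36. Among the genes named below, NRT1.4, NRT1.5, CLC-A, AMT1;1, GLU1, GLT1, ASN1, UPM1, G6PD3, CBL1, DIN10, PYK10 and CASP5 overlap another annotated gene, so their values carry an uncertainty that the sources used here do not settle.

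With YC4-R4 in Col-0, 7 transporters rose and 1 fell, with a median log2 fold change of 0.15 beside 0.0025 over all tested genes. For this and the next lists, 12.9% of all tested genes were called higher and 16.9% lower. SLAH3, a nitrate-permeable anion channel, rose by 0.87 ± 0.060, and NRT1.7, which loads nitrate into the phloem of old leaves, rose by 0.74 ± 0.046. The ammonium transporter AMT2;1 rose by 0.43 ± 0.063 and NRT1.4, which stores nitrate in petioles, by 0.31 ± 0.042. Of the nitrate regulators 3 rose and 11 fell, with a median of -0.10. BT2, a BTB and TAZ domain protein that restrains nitrate uptake, went from 698 ± 16.7 to 264 ± 1.13 CPM (SD, n = 3) and fell by 1.403 ± 0.038. CPK32, a calcium-dependent kinase of nitrate signalling, went from 208 ± 7.18 to 79.8 ± 3.68 CPM and fell by 1.38 ± 0.044. AT1G25550 fell by 1.19 ± 0.046 and BT1, a relative of BT2, by 0.80 ± 0.038. Of the ammonium assimilation genes 5 rose and 3 fell, with a median of 0.057. GLN1;4, a cytosolic glutamine synthetase, rose by 0.72 ± 0.12, while the asparagine synthetases ASN2 and ASN1 fell by 0.35 ± 0.041 and 0.32 ± 0.046, and the ferredoxin-dependent glutamate synthase GLU1 fell by 0.18 ± 0.034. Of the cofactor and reductant genes 4 rose and 1 fell, with a median of 0.022. The plastid glucose-6-phosphate dehydrogenases G6PD3 and G6PD2 rose by 0.50 ± 0.082 and 0.34 ± 0.064, RFNR1, a root-type ferredoxin reductase, rose by 0.44 ± 0.071, and SIRB, which inserts iron into siroheme, fell by 0.27 ± 0.083. The largest adjusted p of these named genes was that of SIRB, at 0.0108 (edgeR, Benjamini-Hochberg), and it was not called without Col-0 control replicate 3 (adjusted p = 0.0647) or Col-0 YC4-R4 replicate 1 (adjusted p = 0.0657), or with plain library totals (adjusted p = 0.106).

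With YC4-R4 in rdd, 3 transporters rose and 11 fell, with a median of -0.32 beside 0.0036 over all tested genes, of which 15.1% rose and 17.1% fell. SLAH3 fell by 1.36 ± 0.062, from 99.8 ± 9.83 to 38.6 ± 3.58 CPM. NRT1.5, which loads nitrate into the xylem, fell by 0.58 ± 0.045, AMT2;1 by 0.49 ± 0.059 and NRT1.2, a low-affinity nitrate transporter, by 0.41 ± 0.051. Of the regulators 6 rose and 13 fell, with a median of -0.10. BT1 fell by 1.16 ± 0.037, BT2 by 0.70 ± 0.037, CPK32 by 0.69 ± 0.050 and LBD38, a repressor of nitrate-responsive genes, by 0.61 ± 0.051. Of the ammonium assimilation genes 6 rose and 3 fell, with a median of 0.042. ASN1 fell by 1.32 ± 0.041, from 337 ± 14.9 to 135 ± 7.53 CPM, while the NADH-dependent glutamate synthase GLT1 rose by 0.61 ± 0.042, the cytosolic glutamine synthetase GLN1;2 by 0.42 ± 0.037 and ASN2 by 0.31 ± 0.042. Only 1 cofactor gene rose and 2 fell, with a median of 0.053. SIRB rose by 0.34 ± 0.082, RFNR2, a relative of RFNR1, fell by 0.21 ± 0.059, and FD3, a root-type ferredoxin, fell by 0.19 ± 0.057. FD3 had the largest adjusted p of these named genes, at 0.0101 (edgeR, Benjamini-Hochberg), and was not called without rdd YC4-R4 replicate 1 (adjusted p = 0.0795).

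**Figure D4:**
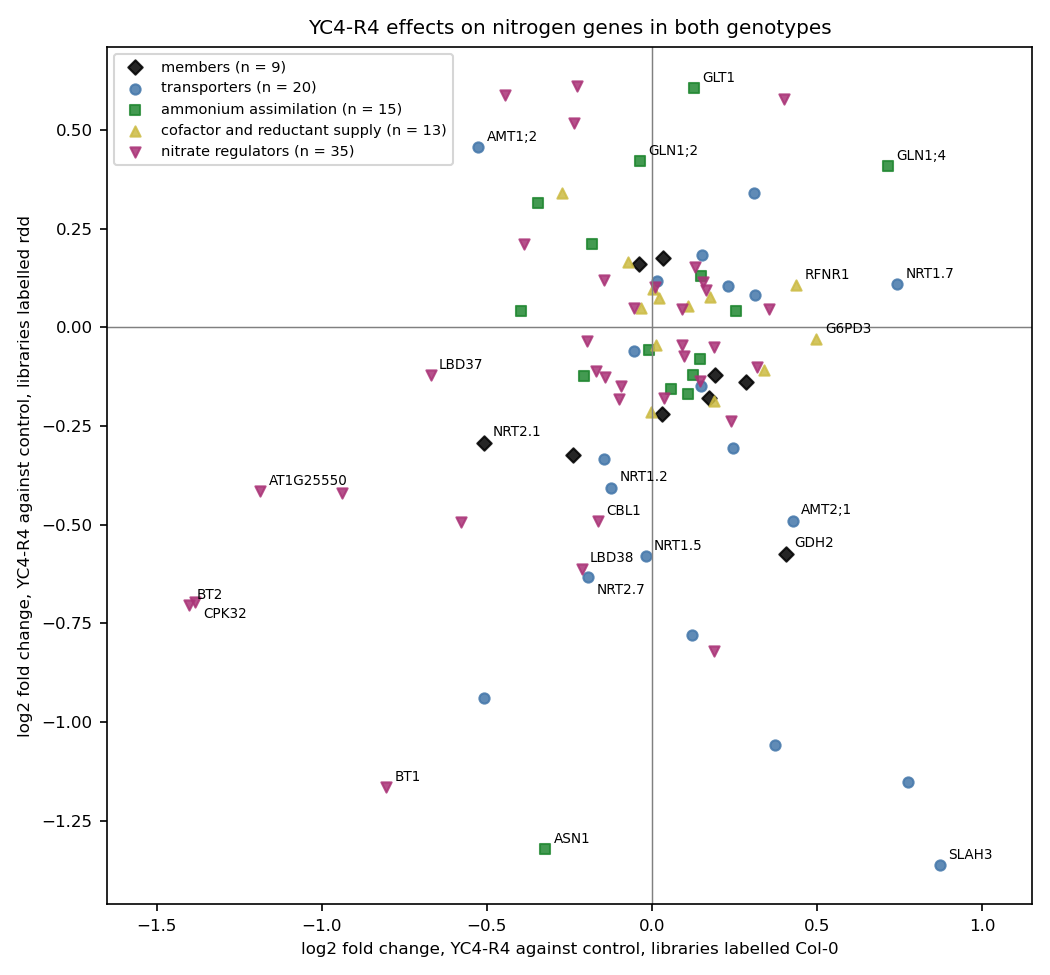
Log2 fold change with YC4-R4 in Col-0 (horizontal axis) against that in rdd (vertical axis) for the 9 genes and the 83 tested genes of the 4 lists, by list, with names for genes of the text beyond 0.4 on either axis. SLAH3 lies at 0.87 and -1.36, GDH2 at 0.41 and -0.57, and BT1, BT2 and CPK32 lie below 0 on both axes.

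Between genotypes in control soil, 12 transporters were higher in rdd and 4 lower, with a median of 0.48 beside 0.0091 over all tested genes, of which 20.9% were higher and 23% lower. The ammonium transporter AMT1;1 was higher by 0.79 ± 0.042, SLAH3 by 0.82 ± 0.060 and CLC-A, the nitrate exchanger of the vacuole, by 0.47 ± 0.038, whereas the ammonium transporter AMT1;2 was lower, at -1.43 ± 0.089. Of the regulators 12 were higher and 11 lower, with a median of 0.047. CPK32 was lower at -1.51 ± 0.045 and AT1G25550 at -0.999 ± 0.046, and BT1 and AT3G60320 were higher by 0.63 ± 0.036 and 0.56 ± 0.039. Of the ammonium assimilation genes 4 were higher and 6 lower, with a median of -0.040. ASN1 was higher by 1.69 ± 0.043, close in size to GDH2, while ASN2 at -0.68 ± 0.041, GLT1 at -0.36 ± 0.042 and GLN1;2 at -0.34 ± 0.037 were lower. Of the cofactor genes 2 were higher and 2 lower, with a median of 0.048, namely G6PD2 at 0.29 ± 0.064, FD3 at 0.23 ± 0.057, SIRB at -0.30 ± 0.083 and UPM1, which starts siroheme synthesis, at -0.18 ± 0.039. The largest adjusted p of these named genes was 0.003, for SIRB (edgeR, Benjamini-Hochberg).

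In YC4-R4 soil 4 transporters were higher in rdd and 8 lower, with a median of -0.092 beside 0.0071 over all tested genes, of which 14.3% were higher and 14.4% lower. SLAH3 was lower at -1.42 ± 0.062, the vacuolar nitrate transporter NRT2.7 at -0.67 ± 0.083, NRT1.4 at -0.46 ± 0.042 and NRT1.7 at -0.35 ± 0.044. Of the regulators 12 were higher and 7 lower, with a median of 0.080. CPK32 was lower at -0.83 ± 0.050 and CBL1, a calcium sensor that acts on NRT1.1 through a kinase, at -0.77 ± 0.088, while BT2 and BT1 were higher by 0.37 ± 0.038 and 0.27 ± 0.039. Of the ammonium assimilation genes 4 were higher and 3 lower, with a median of -0.088. ASN1 was higher by 0.69 ± 0.045, and GLU1 and GLN1;2 by 0.12 ± 0.034 and 0.12 ± 0.037, while ASP5, a plastid aspartate aminotransferase, was lower at -0.15 ± 0.039. The calls of GLU1 and GLN1;2 were lost without Col-0 YC4-R4 replicate 1 (edgeR, adjusted p = 0.0581 and 0.0861), and that of GLN1;2 also without rdd YC4-R4 replicate 1 (adjusted p = 0.0588). Of the cofactor genes 1 was higher and 4 lower, with a median of -0.0064, and G6PD3 at -0.64 ± 0.083, RFNR1 at -0.37 ± 0.070, UPM1 at -0.23 ± 0.038 and RFNR2 at -0.23 ± 0.059 were lower. The largest adjusted p of these named genes was that of GLN1;2, at 0.0128 (edgeR, Benjamini-Hochberg).

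The interaction was called for 12 transporters, 1 upward and 11 downward, with a median of -0.36 beside 0.0036 over all tested genes, of which 16.2% were called upward and 14.4% downward. It was called for 15 regulators, 9 upward and 6 downward, for 9 ammonium assimilation genes, 4 upward and 5 downward, and for 5 cofactor genes, 1 upward and 4 downward. The medians of these 3 lists were 0.017, -0.048 and -0.056. SLAH3 had an interaction of -2.23 ± 0.086, since it rose with YC4-R4 in Col-0 and fell in rdd. AMT2;1 (-0.91 ± 0.087), NRT1.7 (-0.63 ± 0.065) and AMT1;1 (-0.55 ± 0.060) had the next smallest adjusted p among transporters. ASN1 stood at -0.999 ± 0.062, ASN2 at 0.66 ± 0.058, GLN1;2 at 0.46 ± 0.052 and GLU1 at 0.39 ± 0.048. BT2, AT1G25550, CPK32 and LBD37, a relative of LBD38, stood between 0.55 and 0.77, and fell in both genotypes. SIRB stood at 0.61 ± 0.12, and G6PD2, FD3 and G6PD3 between -0.53 and -0.38. The largest adjusted p of these named genes was 0.000786, for G6PD3 (edgeR, Benjamini-Hochberg).

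GDH2 and ASN1 are both known to respond to sugar shortage, and a list of 7 carbon starvation genes, which includes ASN1, was measured beside them. Its summed level was 1202 to 1234 CPM in Col-0 control, 1180 to 1200 in Col-0 YC4-R4, 3326 to 3457 in rdd control and 1769 to 1783 in rdd YC4-R4. Most of it came from DIN10, a raffinose synthase family gene, at 843 ± 14.7, 916 ± 11.9, 2632 ± 77.0 and 1411 ± 15.5 CPM in that order. Of its 6 tested genes, 5 were higher and none lower in rdd in control soil, where 20.9% of all tested genes were higher and 23% lower. In YC4-R4 soil 5 were higher and 1 lower, beside 14.3% and 14.4% of all tested genes. With YC4-R4, 1 rose and 4 fell in Col-0, beside 12.9% and 16.9%, and all 6 fell in rdd, beside 17.1%. The summed level of GDH1 and GDH2 was 154 to 163 CPM in Col-0 control, 186 to 192 in Col-0 YC4-R4, 388 to 397 in rdd control and 275 to 292 in rdd YC4-R4. Both sums were highest in rdd control, followed by rdd YC4-R4, without overlap. With YC4-R4 in Col-0 they parted, since the glutamate dehydrogenase sum was higher and the carbon starvation sum slightly lower. The median log2 fold change of the 6 tested carbon starvation genes was -0.36 there, with 1 called higher and 4 lower. The part of sugar supply in the glutamate dehydrogenase levels was not tested.

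Markers of organs and of time of day also differed between the groups. The summed level of 14 shoot markers was 52187 to 54723 CPM in Col-0 control, 44517 to 45363 in Col-0 YC4-R4, 41426 to 43216 in rdd control and 43326 to 43919 in rdd YC4-R4. The 17 root markers summed to 1287 to 1309, 1184 to 1191, 1128 to 1186 and 1128 to 1144 CPM in the same order, most of it from PYK10. Without PYK10 they summed to 151 to 160, 157 to 169, 203 to 215 and 162 to 170 CPM. Of the 15 tested root markers, PYK10 included, 12 were higher and 1 lower in rdd in control soil, beside 20.9% and 23% of all tested genes. The 8 morning clock genes summed to 353 to 366, 228 to 240, 204 to 218 and 196 to 212 CPM, and the 7 evening clock genes to 537 to 582, 512 to 521, 522 to 525 and 424 to 446 CPM. NIA2 and the summed morning clock genes were both highest in Col-0 control and lowest in rdd YC4-R4, although the rdd groups overlapped for the clock sum. With YC4-R4 in rdd, 2 morning clock genes were called higher and 2 lower, beside 15.1% and 17.1% of all tested genes, while NIA2 fell. In Col-0 0 were called higher and 7 lower, beside 12.9% and 16.9%. Of the 14 shoot markers, 0 were higher and 14 lower in rdd in control soil, beside 20.9% and 23% of all tested genes. In YC4-R4 soil 6 were higher and 6 lower in rdd, beside 14.3% and 14.4%. With YC4-R4, 0 rose and 13 fell in Col-0, beside 12.9% and 16.9%, and 7 rose and 4 fell in rdd, beside 15.1% and 17.1%. The 4 flower markers summed to at most 1.62 CPM and none was tested. Every root and shoot marker had counts in all 4 groups, with CASP5 lowest at 5 to 14 counts a group. The part of organ share and of time of day in the results above was not tested.

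**Figure D5:**
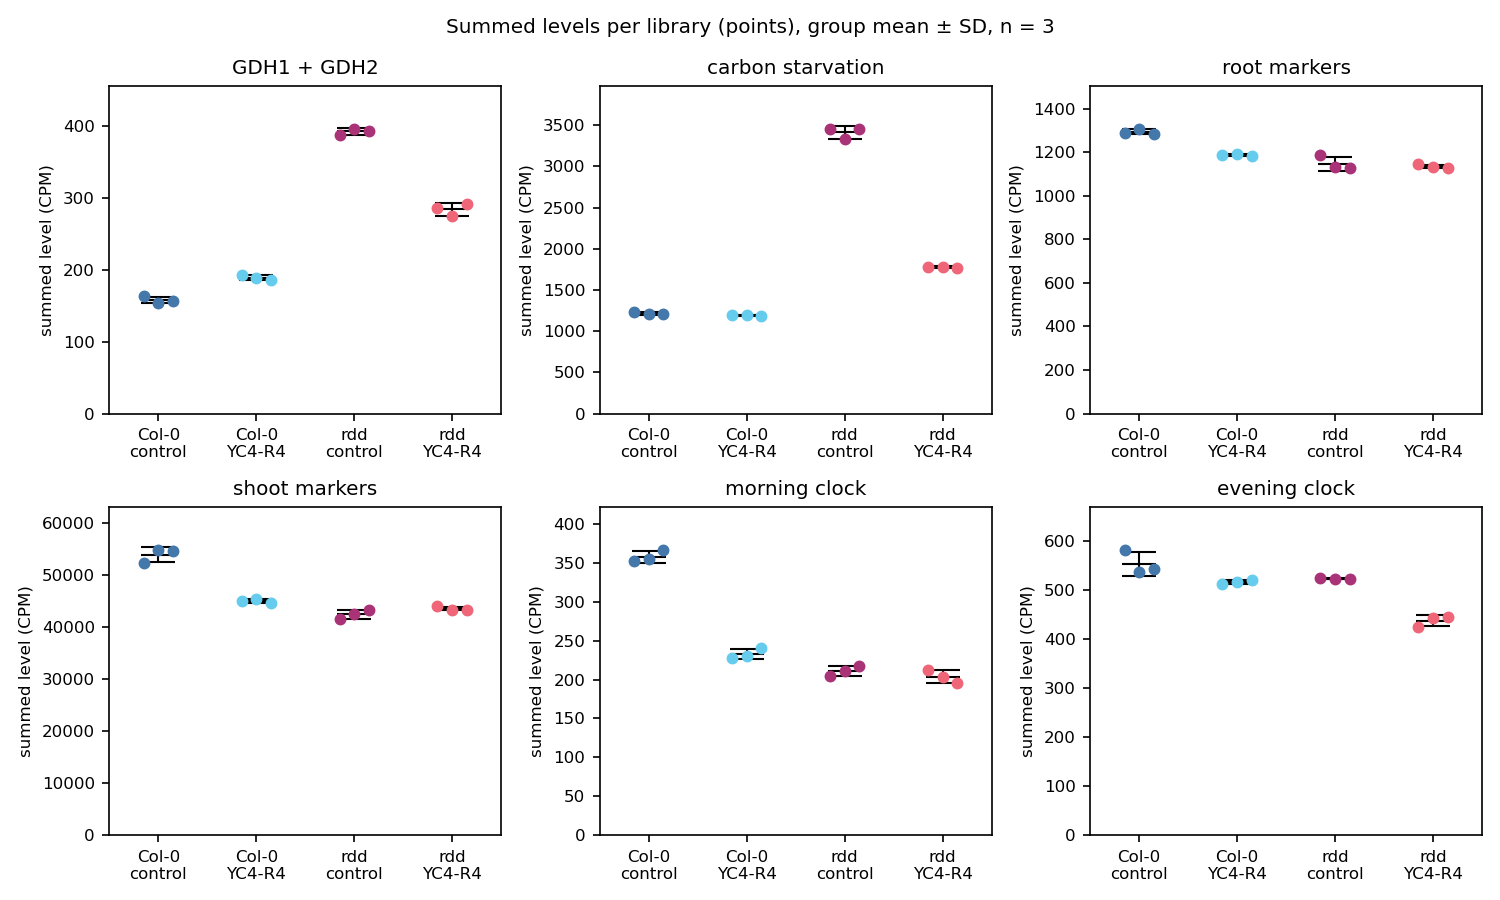
Summed level (vertical axis, CPM from 0) of GDH1 with GDH2 and of the marker lists in every library (points), by group, with bars for the mean ± SD over 3 libraries. The carbon starvation genes sum to 3326 to 3457 CPM in rdd control and to at most 1234 CPM in the Col-0 groups, and the shoot and morning clock sums are highest in Col-0 control.

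For each of the 9 genes, the 3 genes with the most alike profile were sought among 18130 genes, by Pearson correlation of log2 CPM over the 12 libraries. The libraries form 4 groups, so a high value mostly says that the group means line up, and it is given as a description. GDH2 was most like HAT2, AT5G12050 and ERD5, with r of 0.992, 0.992 and 0.990, and GDH1 was most like AT4G39675, WRI4 and BXL2, with r of 0.984 for each. NIA2 was most like XT1, SOBIR1 and AT1G69900, with r of 0.990, 0.988 and 0.986. NIA1 was most like SPL2, OPR3 and LEA14, with r of 0.966, 0.964 and 0.961, and NIR1 was most like CAX1, AT5G61820 and AT3G08740, with r of 0.977, 0.973 and 0.970. NRT1.1 was most like CK1, AT1G30440 and EIF4A1, with r of 0.969, 0.958 and 0.957. GLN1;1 was most like GR-RBP2, AT3G09630 and LNG1, with r of 0.984, 0.955 and 0.950, and GLN2 was most like AT2G38995, AT3G61550 and AT1G48450, with r of 0.958, 0.955 and 0.942. NRT2.1 had the lowest values, with r of 0.848, 0.834 and 0.819 to RAE1, AT5G55950 and AT2G28080. No gene was among the nearest of more than 1 of the 9.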

How the data were processed

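Messenger RNA of whole plants was measured in 12 libraries, grouped by the labels alone into 4 groups of 3. The authors deposited whole-number read counts per gene, not normalized. Per the submitters' processing notes, the tools were Trimmomatic 0.36, HISAT2 2.1.0 and HTSeq 0.9.1 with genome build TAIR10. Neither the strand setting of HTSeq nor the annotation release is given in the sources used here. Counts of genes that overlap another gene are therefore uncertain. Symbols, coordinates and sequences were taken by locus code from NCBI RefSeq's TAIR10.1.

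The analysis used edgeR 4.0.16 in R 4.3.3 on the unchanged counts. Genes were filtered by filterByExpr with the 4 groups, scaled by TMM and fitted with 1 mean per group over all 12 libraries, with 8 residual degrees of freedom. The fit also shares information on spread across genes, so the p-values rest on more than those 8. The spread of a gene was pooled over the groups. Standard errors and p-values therefore do not carry the wider spread of rdd YC4-R4 (biological coefficient of variation 5.81%) and may be too small for comparisons with that group. The quasi-likelihood test was applied to 5 comparisons, and calls needed an adjusted p (Benjamini-Hochberg, over the 20651 genes tested) under 0.05, whatever the fold. Levels are TMM-scaled counts per 1000000 (CPM), and the standard error is the log2 fold change divided by the square root of F. Library totals of 14465710 to 20281801 set the counting precision. The test was tested on simulated data with known changes. Those changes were placed in Col-0 YC4-R4 alone, and each gene was given the same spread in every group. The simulation therefore does not cover the wider spread of rdd YC4-R4. All replicate pairs differed by more than counting noise, with chi-square per degree of freedom of 1.60 to 5.42. P-values measure the spread within groups, and a growth or harvest difference shared by a whole group cannot be told apart from genotype or soil.

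The 9 genes and the lists were chosen with earlier results of these data known. The text names those 9 throughout, up to 4 genes with the smallest adjusted p among those called in each list and comparison, and the 3 most correlated genes (average log2 CPM of 1 or more, prior count 2). ROS1, DML2 and DML3 are named as a check of the labels, and PYK10 and DIN10 were singled out after its values were seen. Alternatives were size factors by RLE, DESeq2 1.42.0, no low-count filter, only the groups compared, the replicate number as a block and each library left out. A scaling by plain library totals was added after seeing the data.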

Additional observations from a re-analysis of the deposited data

Results flagged for a closer look

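The YC4-R4 effect differed between the libraries labelled rdd and those labelled Col-0 by a test of the interaction (edgeR, Benjamini-Hochberg adjusted p under 5%) for 7 of the 9 nitrate assimilation genes, beside 30.6% of all tested genes. The difference, rdd minus Col-0 on the log2 scale, was -0.98 for GDH2, -0.42 for GLN1;1, -0.35 for NRT1.1, -0.31 for NIA1, -0.25 for GDH1, 0.20 for GLN2 and 0.14 for NIR1. Over all tested genes the median absolute difference was 0.21. The call for NIR1 was lost under 12 of 17 other settings. In GDH2, GLN1;1, NRT1.1 and NIA1 the effect was called in both genotypes and had opposite directions, although the call in rdd was lost under 6 of 18 other settings for GLN1;1 and under 2 of 18 for NIA1.

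The same test was passed by 27 named genes of the other lists. Among transporters the difference was -2.23 for SLAH3, -0.91 for AMT2;1, -0.63 for NRT1.7, -0.56 for NRT1.5, -0.55 for AMT1;1, -0.44 for NRT2.7, -0.30 for CLC-A, -0.28 for NRT1.2 and 0.98 for AMT1;2. The YC4-R4 effects of SLAH3, AMT2;1, AMT1;1 and CLC-A were above 0 in Col-0 and below 0 in rdd, and that of AMT1;2 was the reverse. Among ammonium assimilation genes the difference was -0.999 for ASN1, 0.66 for ASN2, 0.48 for GLT1, 0.46 for GLN1;2 and 0.39 for GLU1. Among cofactor and reductant genes it was -0.53 for G6PD3, -0.45 for G6PD2, -0.38 for FD3, -0.33 for RFNR1 and 0.61 for SIRB. Among regulators it was 0.77 for AT1G25550, 0.70 for BT2, 0.69 for CPK32 and 0.55 for LBD37, which were all lower with YC4-R4 in both genotypes and by less in rdd, and -0.36 for BT1, -0.40 for LBD38, -0.33 for CBL1 and -0.48 for AT3G60320. The call for CBL1 passed narrowly (edgeR, adjusted p = 0.0381), and its interaction was not checked under other settings. Outside the transporters, YC4-R4 effects were below 0 in Col-0 and above 0 in rdd for ASN2, GLN1;2, GLU1 and SIRB. They were the reverse for G6PD3, G6PD2, FD3 and AT3G60320. Of these, GLN1;2 in Col-0 (-0.038) and G6PD3 in rdd (-0.029) lay near 0.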

How the results depend on the processing

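Across all alternatives, every count of called genes with both directions pooled, among the 9 and among all tested genes, stayed within 1.5 times its value. Counts by direction did not. Plain library totals took the genes higher with YC4-R4 in Col-0 from 2661 to 5879 and those lower from 3484 to 2172, the genes higher in rdd in control soil from 4319 to 6598, and the upward interaction calls among the 9 went from 2 to 1 where NIR1 was lost. Single genes kept direction and call in 767 of 801 checks on the 9 and in 1397 of 1406 on the named list genes. Leaving out single libraries gave 5 called of the 9 for YC4-R4 in Col-0, 7 to 8 in rdd, 7 for the genotypes in control soil, 5 to 6 in YC4-R4 soil and 6 to 7 for the interaction. The signs that reversed belonged to values not called. NRT2.1 ran from -0.24 to 0.11 (genotypes, control soil), from -0.14 to 0.35 (genotypes, YC4-R4 soil) and from -0.078 to 0.42 (interaction) over the fits without a library, and its 20 to 46 counts per library limit its precision. Plain library totals gave NRT2.1 0.026 in control soil and GLN2 0.067 for YC4-R4 in Col-0. That scaling moved the median of all genes to 0.11 for YC4-R4 in Col-0 and 0.10 for the genotypes in control soil. It moved the share of higher genes among those called from 43.3% to 73.0%, from 47.7% to 65.7% and, in the interaction, from 52.8% to 37.6%. Under it NIR1 (0.14) and GDH1 (0.14) were called for YC4-R4 in Col-0, NIA1 (0.12) for the genotypes in control soil, GLN2 (0.083) in YC4-R4 soil and NIA2 (-0.16) in the interaction, while calls were lost for NIA1 (-0.088) and GLN1;1 (-0.11) with YC4-R4 in rdd, GLU1 (-0.076) and SIRB (-0.17) in Col-0, GLN2 (-0.044) and UPM1 (-0.087) between genotypes in control soil, and NIR1 (0.070) in the interaction. With the replicate number as a block, the counts called among the 9 were 5, 8, 7, 5 and 6 in the order above, and NIR1 lost its interaction call (0.14, edgeR adjusted p = 0.0523). Same-numbered libraries correlated at -0.051 to 0.026, 0 of 18 pairs over 0.1, and 2 of 12 libraries correlated best with their own number. No pairing by number was seen, although correlations of this kind cannot exclude one. The cause of these shifts was not tested.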
